A study of Ovis aries with 18 samples.

Results

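In 3 skeletal muscles of the lamb, 108 very abundant genes differed mildly in mean level between muscles. They were chosen from the 20477 genes of the deposited table by their mean FPKM per muscle. FPKM scales a gene's reads to its length and to the reads counted in the library, so levels of different genes can be compared per length. A member had a mean of at least 300 FPKM over the muscle means, and its largest muscle mean was more than 1.25 and less than 2 times its smallest. A further condition, that the psoas mean stay under 1.5 times the larger of the other means, left out 0 genes. Because the muscle means chose the members, differences between muscles are described here without a test.

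The lambs' longissimus lumborum (LL) runs along the back, their psoas major (PM) is the tenderloin, and their soleus (SOL) helps to hold the hind limb upright. Each muscle was represented by 6 libraries, numbered 1 to 6, of total RNA from sheep (Ovis aries), taken from the left carcass side. The design text calls the animals lambs, and no source used here gives a more exact age, the breed or the sex. No treatment or genotype is named for any group. The libraries are of bulk muscle RNA, so fewer cells of a type and less RNA per cell cannot be told apart.

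Skeletal muscle fibres differ in contraction speed and in their energy supply. Slow fibres, common in postural muscles, rely mainly on mitochondrial respiration, and fast fibres rely more on glycolysis. The most abundant transcripts of muscle generally encode sarcomere proteins, enzymes of energy metabolism, mitochondrial proteins and ribosomal proteins. Which of these the 108 members encode cannot be said, because 0 identifiers of the table matched the RefSeq gene table used here. Members are therefore named by Ensembl identifier, no function or sequence is given, and the muscle labels could not be checked against marker genes.

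The library totals, recovered from the values, ranged from 10216739 to 14747118 reads. The members had a median of 7180 reads per gene and library and at least 382, at which counting alone gives an error of 5.12%. In every LL library fewer genes had a read (12704 to 14552 genes) than in any PM library (14647 to 14942 genes), and SOL 5, at 14181, had the fewest of its muscle. The part of these library differences in the levels below was not tested.

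The members' share of all reads differed less between muscles than between libraries of the soleus. It was 20.4% ± 0.634 for LL, 21.4% ± 1.02 for PM and 21.0% ± 1.52 for SOL (SD, 6 libraries per muscle). The lowest library was SOL 2 at 19.0% and the highest SOL 1 at 22.9%, so the soleus libraries spanned the range of all 18. All 208 genes that reached a mean of 300 FPKM together held 49.7% of LL reads, 50.7% of PM reads and 45.6% of SOL reads. Of these 208 genes, 24 had muscle means within 1.25 times of each other, and 76 differed by at least 2 times.

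Reads were concentrated in a few members, led by a pair of long ones. The 10 members with most reads held 64.7% of the members' reads, and the leading pair held 7.58% of all reads. ENSOARG00020020356 (16720 bp) held 4.31% on average, from 2.97% to 5.36% among the libraries. ENSOARG00020024247 (20515 bp) held 3.27%, from 2.42% to 5.05%. Both were singled out after their values were seen. Per length they ranked lower, at means of 2576 and 1594 FPKM.

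Most members were shorter than the typical tested gene. Lengths were inferred from the values. The median was 1179 bp for members, against 1495 bp for the 15434 genes tested. Of the members, 44 of 108 (40.7%) were under 1000 bp, against 29.8% of the genes tested. Genes of 100 to 300 FPKM resembled them, with a median of 1163 bp. The shortest member had 135 bp, and 6 members were under 300 bp, the approximate length of the fragments named in the labels. FPKM of such short genes depends on how reads at their ends were counted, and no source used here says how that was done. A length divisible by 3 was found in 40.7% of members and 43.8% of tested genes.

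Just above the level limit the lowest member had a mean of 303 FPKM, and the nearest gene left out had 295.5. At the lower ratio limit the nearest genes lay at 1.258 inside and 1.246 outside. At the upper limit they lay at 1.98 and 2.05. Means reached 1000 FPKM in 24 members and stayed under 500 FPKM in 60. The median ratio of the largest to the smallest muscle mean was 1.48, and 51 members reached 1.5.

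**Figure D1:**
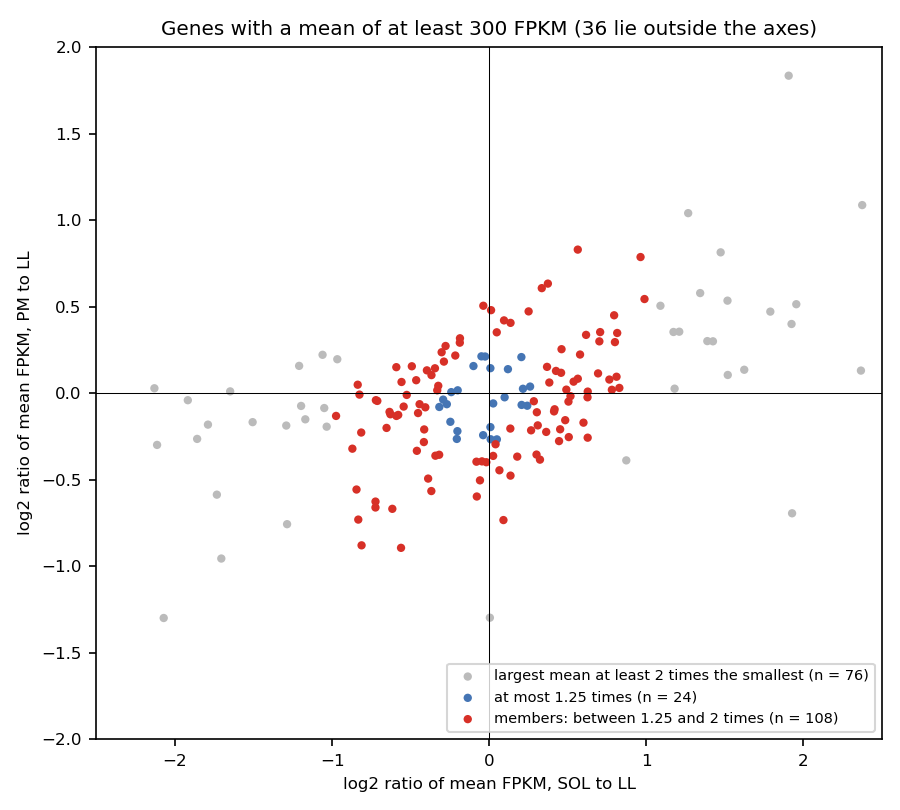
Each point is a gene whose mean reaches 300 FPKM; the x axis is the log2 ratio of its mean FPKM in SOL to LL and the y axis that of PM to LL. The 108 members (red) surround the 24 even genes (blue) as a ring on all sides, by the rule that chose them, and of the 76 genes with larger ratios (grey) 36 lie outside the axes.

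No muscle was the highest for all members, and every order of the muscles occurred. SOL was highest for 48 members, LL for 35 and PM for 25. SOL was also lowest most often, for 40 members, with PM lowest for 37 and LL for 31. The commonest orders were SOL over LL over PM (25 members), SOL over PM over LL (23) and LL over PM over SOL (23). PM over SOL over LL was the rarest, with 8 members. After each library was scaled by the median ratio of its genes, the highest muscle was the same for 103 members and the lowest for 100. SOL was then highest for 44 and lowest for 48.

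For 53 members at least 1 pair of muscles did not overlap, library against library, and for 15.6% of all genes tested. In the model of log2(FPKM + 0.1) fitted to all genes with limma, 68 members had an adjusted p under 0.05 in the F-test over the 3 muscles, and 23.4% of all genes did. The rule used the muscle means, so nothing is read from these counts or from those for the pairs of muscles below.

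SOL and LL did not overlap for 29 members, and for 11.4% of all genes. In SOL, 18 of these members were higher (7.25% of all genes) and 11 lower (4.16% of all genes). With median-ratio scaling 6 members without overlap were higher and 18 lower, and with equal FPKM sums 15 and 18. Shares of all genes without overlap are not given for these scalings, so nothing is read from the shift about the members. The model called 54 members at an adjusted p under 0.05, and 25.4% of all genes. Of the called members, 29 were higher in SOL (17.1% of all genes) and 25 lower (8.31% of all genes). With median-ratio scaling, 15 called members were higher in SOL (13.6% of all genes) and 35 lower (11.1% of all genes). With equal FPKM sums, 27 were higher (14.9% of all genes) and 35 lower (9.21% of all genes). Median-ratio scaling moved the median SOL-to-LL log2 difference of all genes from 0.24 to 0.13 and that of the members from 0.03 to -0.08. Such scaling moves the log2 differences of all genes by nearly the same amount, so the distance between both medians could hardly change.

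ENSOARG00020019247 (2771 bp) had the largest SOL-to-LL ratio of mean FPKM among members whose libraries did not overlap, 1.98. Its level in LL ran from 1223 to 1739 FPKM with a median of 1402. In PM it ran from 1755 to 2378 FPKM with a median of 2050, and in SOL from 2180 to 3153 FPKM with a median of 2931. LL lay below both other muscles in every library, while SOL 2, the lowest soleus library, lay within the PM range. The log2 difference between SOL and LL was 0.99 (SE 0.16).

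ENSOARG00020018512 (2215 bp) was low in LL alone. LL libraries held 184 to 241 FPKM (median 211), PM libraries 314 to 430 FPKM (median 360) and SOL libraries 351 to 455 FPKM (median 436). All LL libraries lay below all others, and PM and SOL overlapped. The log2 difference was 0.96 (SE 0.11) between SOL and LL and 0.79 (SE 0.11) between PM and LL. It was also the second-ranked member for PM above LL.

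ENSOARG00020001248 (831 bp) and ENSOARG00020014013 (1439 bp) had the smallest SOL-to-LL ratios among members whose libraries did not overlap, 0.547 and 0.557. The first ran from 351 to 533 FPKM in LL (median 433), 297 to 440 in PM (median 334) and 190 to 313 in SOL (median 235). PM overlapped both of the others, between which it lay. The second ran from 397 to 567 FPKM in LL (median 510), 281 to 408 in PM (median 311) and 254 to 297 in SOL (median 276). Its soleus libraries were close together, with an SD of 14.3 FPKM against 62.8 in LL. The log2 differences were -0.87 (SE 0.14) and -0.84 (SE 0.12).

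SOL and PM did not overlap for 34 members, and for 10.5% of all genes. In SOL, 22 of these members were higher (6.75% of all genes) and 12 lower (3.78% of all genes). With median-ratio scaling 5 members without overlap were higher and 12 lower, and with equal FPKM sums 14 and 20. Here too, shares of all genes are not given for these scalings, and nothing is read from the shift. The model called 46 members, and 16.8% of all genes. Of the called members, 25 were higher in SOL (11% of all genes) and 21 lower (5.82% of all genes). With median-ratio scaling, 10 called members were higher in SOL (8.17% of all genes) and 26 lower (8.18% of all genes). With equal FPKM sums, 19 were higher (8.31% of all genes) and 30 lower (7.25% of all genes). SOL lay above both other muscles in every library for 10 members (4.25% of all genes) and below both for 6 members (2.51% of all genes).

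ENSOARG00020020783 (664 bp) was the most abundant member and ranked number 3 in the whole table. Its mean level was 16434 ± 6199.7 FPKM for LL, 9879 ± 2614 FPKM for PM and 17498 ± 3633 FPKM for SOL (SD over 6 libraries). LL libraries ran from 8996 to 27814 FPKM with a median of 15456, and LL 3 held the highest value. PM libraries ran from 6353 to 12639.6 FPKM (median 10107), all below the SOL range of 13375 to 23418 FPKM (median 16707). LL overlapped both. The SOL-to-PM ratio of means was 1.77, with a log2 difference of 0.84 (SE 0.36).

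ENSOARG00020003476 (824 bp) had the largest SOL-to-PM ratio, 1.85. PM libraries were nearly alike, at 244 to 277 FPKM (median 258), and LL libraries held 247 to 389 FPKM (median 311). SOL libraries held 375 to 727 FPKM (median 436), with SOL 5 highest. SOL lay above all of PM, while the highest LL library, at 389 FPKM, overlapped SOL. The log2 difference between SOL and PM was 0.85 (SE 0.15), and 0.72 without SOL 5.

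ENSOARG00020023712 (1205 bp) and ENSOARG00020000146 (1595 bp) were lowest in SOL and close together in LL and PM. The first ran from 473 to 681 FPKM in LL (median 575), 449 to 733 in PM (median 579) and 251 to 392 in SOL (median 326). The second ran from 300.2 to 410.4 FPKM in LL (median 358), 296 to 424 in PM (median 358) and 179.6 to 226.7 in SOL (median 203). All soleus libraries lay below all others for both genes. The log2 differences between SOL and PM were -0.88 (SE 0.15) and -0.81 (SE 0.11).

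PM and LL did not overlap for 9 members, and for 1.33% of all genes. In PM, 4 of these members were higher (0.719% of all genes) and 5 lower (0.609% of all genes). With median-ratio scaling the counts were 4 and 4, and with equal FPKM sums 6 and 5, again without shares of all genes to set beside them. The model called 7 members, and 1.48% of all genes. Of the called members, 4 were higher in PM (0.933% of all genes) and 3 lower (0.551% of all genes). With the replicate number as a block it called 11 members and 2.69% of all genes. Without LL 3, PM 1, PM 4 or PM 5, each left out in turn, 4 members were called. The shares of all genes then were 1.16%, 0.973%, 0.971% and 1.24%.

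ENSOARG00020005664 (1274 bp) had the largest PM-to-LL ratio, 1.78. LL libraries held 2031 to 3453 FPKM (median 2705), PM libraries 4163 to 5749.8 FPKM (median 4794) and SOL libraries 3333 to 4397 FPKM (median 4145). PM exceeded LL in every library, and SOL overlapped both. The log2 difference between PM and LL was 0.84 (SE 0.19).

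ENSOARG00020003728 (766 bp) and ENSOARG00020022261 (1175 bp) were high in LL. The first held 2789 to 6873 FPKM in LL (median 4610.4), 2348 to 2607 in PM (median 2492) and 1789 to 3439.5 in SOL (median 2618). Its LL libraries were widely spread, with an SD of 1364 FPKM against 107 in PM, and LL 6 overlapped SOL. The second held 362 to 566 FPKM in LL (median 508), 288 to 339 in PM (median 308) and 258 to 368 in SOL (median 294). Its lowest LL library lay below SOL 5 and above every other SOL and PM library. The log2 differences between PM and LL were -0.83 (SE 0.22) and -0.65 (SE 0.12).

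The next most abundant members were highest in PM. ENSOARG00020020485 (1692 bp) stood at 9733 ± 1149 FPKM in PM, against 8061 ± 976 in LL and 6649 ± 807 in SOL (SD over 6 libraries). ENSOARG00020020514 (1361 bp) stood at 5772 ± 833 FPKM in PM, against 4069 ± 973 in LL and 3965 ± 536 in SOL. In both genes PM 6 was the lowest PM library, and the PM range reached into that of another muscle.

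**Figure D2:**
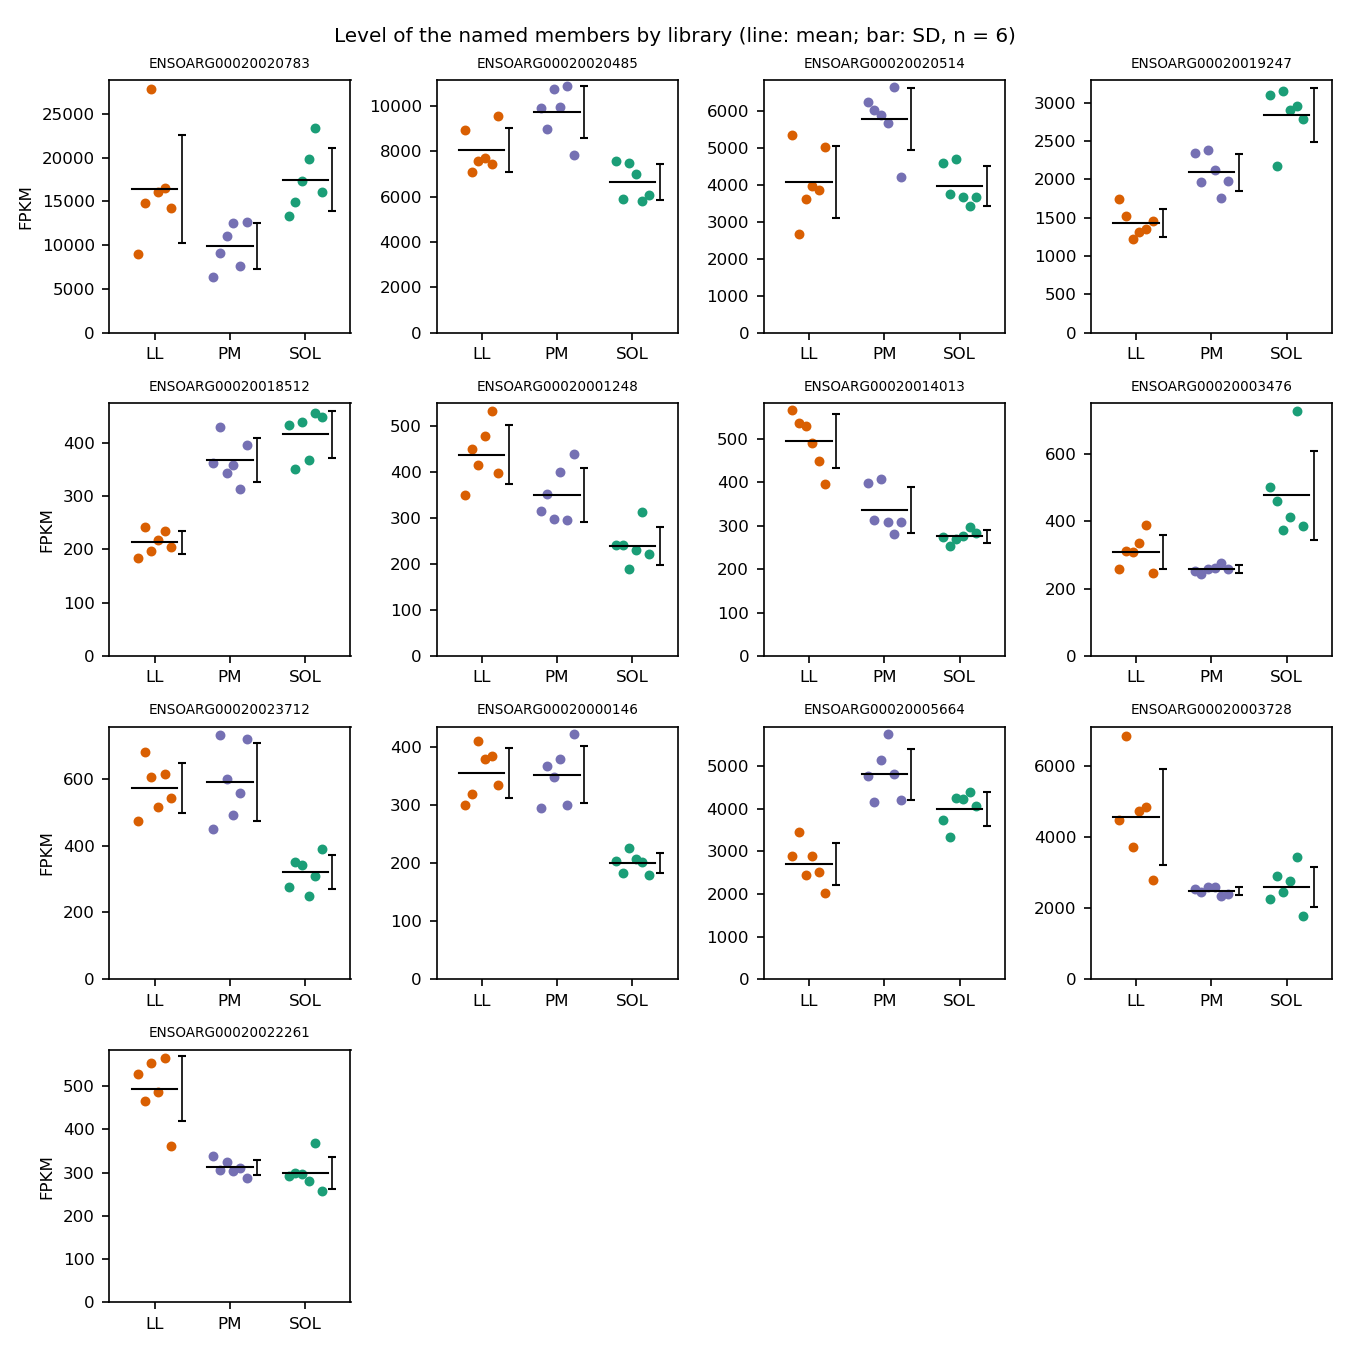
FPKM (y axis, from 0) of 13 named members in the 6 libraries of each muscle (points in order of replicate number); lines are means and bars SDs. SOL lies apart from PM for ENSOARG00020000146, at 179.6 to 226.7 FPKM against 296 to 424, whereas the LL libraries of ENSOARG00020020783 spread from 8996 to 27814 FPKM.

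Within a muscle the members varied little between libraries. The SD of log2 levels around the muscle means had a median of 0.246 (lowest 0.140, highest 0.927), which is a factor of 1.19. It was 0.243 for the 24 even genes of the same level, 0.422 for the 76 with larger ratios, 0.260 for genes of 100 to 300 FPKM and 0.492 for all genes tested. By muscle the members' median SD was lowest in PM, at 0.215, and nearly equal in LL (0.243) and SOL (0.245). For 65 members the log2 ratio of the largest to the smallest muscle mean was more than 2 times the member's own SD around the muscle means.

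The member with the widest spread, ENSOARG00020017657 (4500.0 bp), was singled out after its values were seen. PM 2 held 988 FPKM of it, and the other PM libraries 96.9 to 255 FPKM. LL libraries ran from 73.2 to 593 FPKM and SOL libraries from 284 to 782 FPKM. Its PM mean was 322 FPKM with PM 2 and 189 without it, and without PM 2 the SOL mean of 529 FPKM would exceed the PM mean by more than the rule allows.

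Replicate numbers were compared next, since differences between numbers within a muscle played no role in choosing the members. The labels do not say that a number marks an animal, but at the median same-numbered libraries of different muscles deviated together. Over the 108 members, the correlation of deviations from the muscle means was 0.338 at the median for same-numbered SOL and LL libraries, 0.422 for SOL and PM and 0.372 for PM and LL. For libraries with different numbers the medians were -0.064, -0.070 and -0.071. Different-numbered SOL and LL libraries reached 0.405, and 1 of 6 same-numbered values lay above them all. For SOL and PM, and for PM and LL, 5 of 6 same-numbered values lay above every different-numbered value. Because deviations are centred within each muscle, positive values for same numbers push those for different numbers below 0. The lowest same-numbered value was -0.055, for SOL and PM. These correlations are across genes, which are not independent replicates, and are given as a description.

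In a model with muscle and number, 2 of 108 members differed between numbers at an adjusted p under 0.05 (limma, F-test, adjusted over all genes tested), and 1.89% of all genes did. The count depended on the method: with equal FPKM sums 4 members and 1.84% of all genes were called, and with voom on recovered reads 9 members and 2.93% of all genes. At an unadjusted p under 0.05 the counts were 19 of 108 members (17.6%) and 16.3% of all genes. Of the 462 genes of 100 to 300 FPKM, 32.3% had an unadjusted p under 0.05 and 4.98% were called. Numbers accounted for a median of 47.5% of the within-muscle variance of the members and 40.7% for all genes. Unrelated libraries would give about 33.3%, from 5 of 15 degrees of freedom.

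ENSOARG00020006843 (987 bp) differed most clearly between numbers (limma adjusted p = 0.0025). Its level under number 1 was 3426 FPKM in LL, 2331 in PM and 2129.7 in SOL. Under number 6 it was between 498 FPKM (PM) and 558 FPKM (LL), with SOL at 507. Number 6 was the lowest and number 1 the highest library of each muscle. Numbers 2 to 5 lay between these, with LL at 1628 to 2835 FPKM, PM at 985 to 1181 and SOL at 812 to 1385. The adjusted p ranged from 3.1e-04 to 0.016 when each library was left out, and was 0.042 with SOL and PM alone.

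ENSOARG00020004797 (869 bp) also differed between numbers (limma adjusted p = 0.0040). In LL, numbers 2, 3 and 4 held 553 to 706 FPKM and numbers 1, 5 and 6 held 312 to 425. The same groups of numbers held 697 to 749 and 336 to 401 FPKM in PM, and 960.3 to 1182 and 557 to 818 FPKM in SOL. Numbers 2, 3 and 4 thus lay above numbers 1, 5 and 6 in every muscle. With SOL and PM alone the limma adjusted p was 0.12, above the limit. That fit has fewer libraries, and over all genes it called 115, against 292 with all libraries. A lost call there does not show that the pattern rests on LL.

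**Figure D3:**
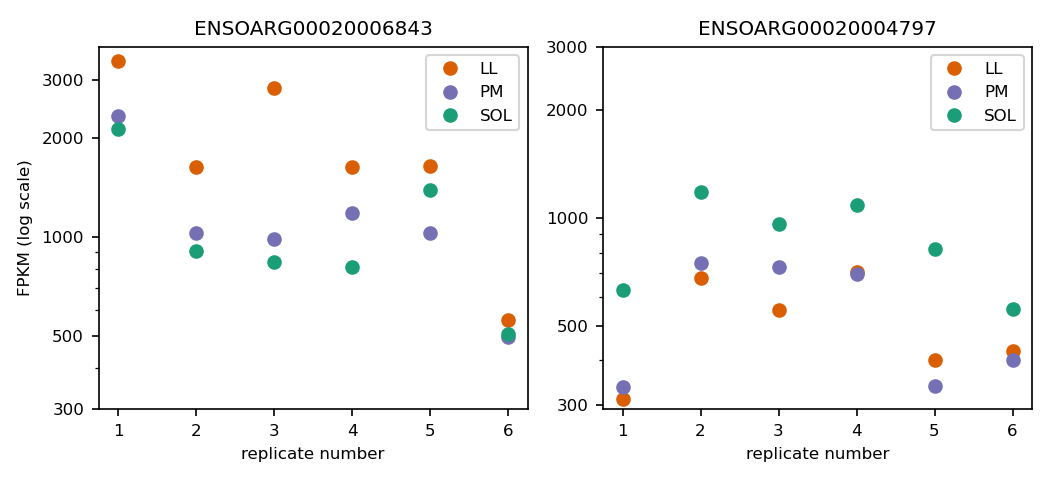
FPKM on a log scale (y axis) against replicate number (x axis) for the pair of members called between numbers, 1 point per library and 1 colour per muscle. ENSOARG00020006843 is highest under number 1 and lowest under number 6 in each muscle, and ENSOARG00020004797 is higher under numbers 2, 3 and 4 than under 1, 5 and 6.

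Co-variation of the members was described with deviations from the muscle means over all 18 libraries. Among the 5778 pairs of members the median correlation was 0.107, and all but the lowest and highest 5% of pairs lay between -0.485 and 0.648. A correlation of at least 0.8 was reached by 48 pairs (0.831%). The share was 0.362% among the 24 even genes and 1.72% among the 76 with larger ratios. All pairs share libraries, depth and the scaling to library totals, and no test was made.

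Joined through pairs of at least 0.8, the members formed 3 sets of 5 or more, a grouping made after the values were seen. The first held 17 members of short length (median 761 bp), 14 of them highest in SOL and 3 in LL. The second held 6 members, and the third 5 members that included ENSOARG00020020485, ENSOARG00020020514 and the 2 longest members. The most abundant member belonged to none of these sets. Its closest likeness was with ENSOARG00020001462 (192 bp, r = 0.842), followed by ENSOARG00020022886 (1203 bp, r = 0.773), over 18 libraries. The former had its highest mean in LL (429 FPKM, against 396 in PM and 313 in SOL), and the latter in SOL (383 FPKM, against 332 in PM and 278 in LL). Members that moved together between libraries could thus have different muscle orders.

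The first set was highest in SOL 5. Its mean log2 deviation was 0.50 in SOL 5 and -0.33 in SOL 6, and from -0.24 to 0.18 in the other libraries. Without SOL 5 the median correlation within the set dropped from 0.623 to 0.360. Its lowest pair stood at 0.049, and at -0.279 without SOL 5. In the third set the median correlation was 0.827 with SOL 5 and 0.829 without it. The first set and the second deviated together (r = 0.760 over 18 libraries, 0.751 without SOL 5). The second set and the third deviated in opposite directions (r = -0.720 over 18 libraries, -0.703 without SOL 5). For the first and the third, r was -0.447, and -0.422 without SOL 5. Without SOL 5, 33 pairs of members reached 0.8, of which 23 also did so with all libraries.

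**Figure D4:**
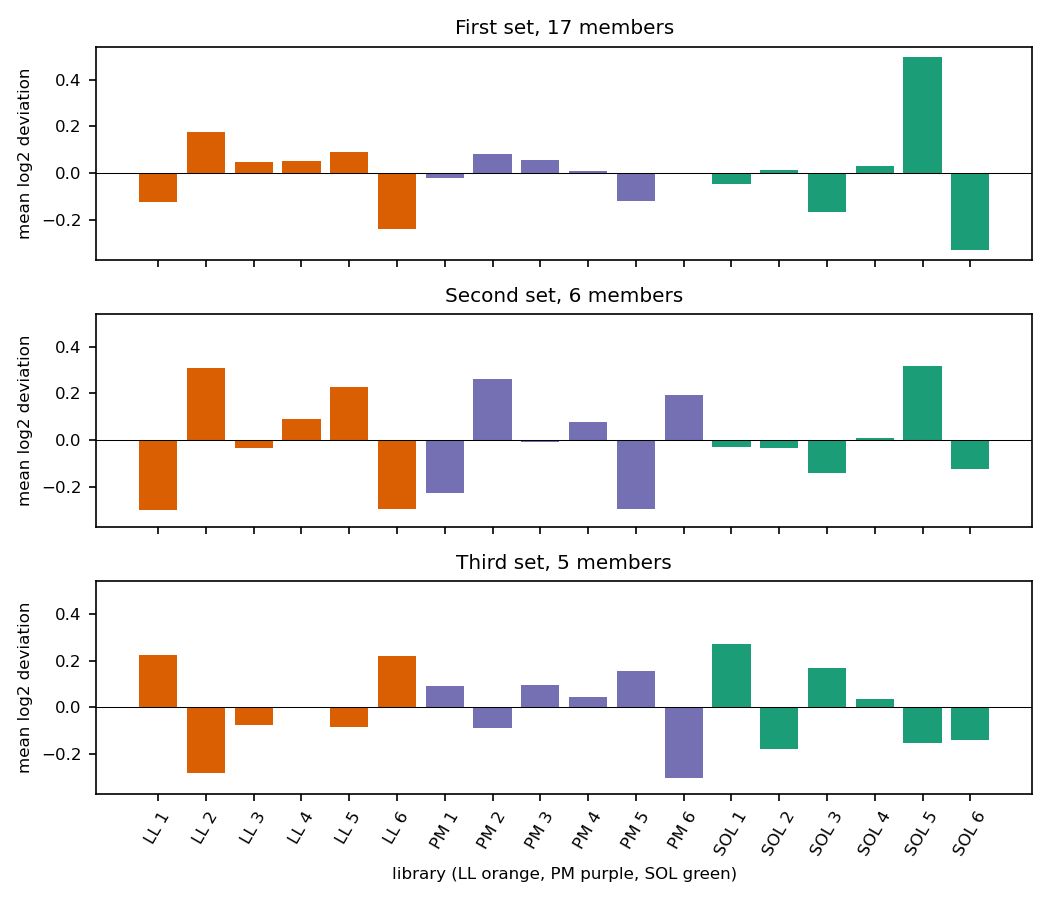
Mean log2 deviation from the muscle mean (y axis) over the members of each of the 3 sets, by library (x axis, coloured by muscle). The first set peaks in SOL 5 at 0.50, and the second set and the third lie on opposite sides of 0 in LL 1, LL 2, LL 6 and PM 6.

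Gene length moved with these deviations in SOL 5. There, the rank correlation between the length of a member and its deviation was -0.607 over 108 members, the farthest from 0 of the 18 libraries. Members under 1000 bp lay at a median of 0.44 above the SOL mean on the log2 scale, and longer members at 0.060. The next largest values were 0.387 in SOL 3 and 0.357 in SOL 6, of opposite sign. Deviations are from a SOL mean that includes SOL 5, so an opposite sign in other SOL libraries is partly built in. Among the 462 genes of 100 to 300 FPKM the SOL 5 value was -0.417. SOL 5 also had the largest sum of FPKM, 617194 against 511272 to 567318 in the others. The part of RNA quality or library preparation in this pattern was not tested.

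Short members were more often highest in SOL. Of the 44 members under 1000 bp, 25 (56.8%) were highest in SOL, and of the 64 longer ones 23 (35.9%). Without SOL 5 the counts were 20 (45.5%) and 23 (35.9%). Among the genes of 100 to 300 FPKM, the shares did not differ by length: 43.9% of short and 44.0% of longer genes were highest in SOL. The median log2 difference between SOL and PM was 0.41 for short and -0.25 for longer members, and 0.33 and -0.29 without SOL 5. Between SOL and LL it was 0.11 and -0.02, and 0.01 and 0.02 without SOL 5, so that contrast with length was nearly gone. In the genes of 100 to 300 FPKM the SOL-to-PM medians were 0.08 for short and 0.02 for longer genes. These are descriptions, since the rule used the muscle means.

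**Figure D5:**
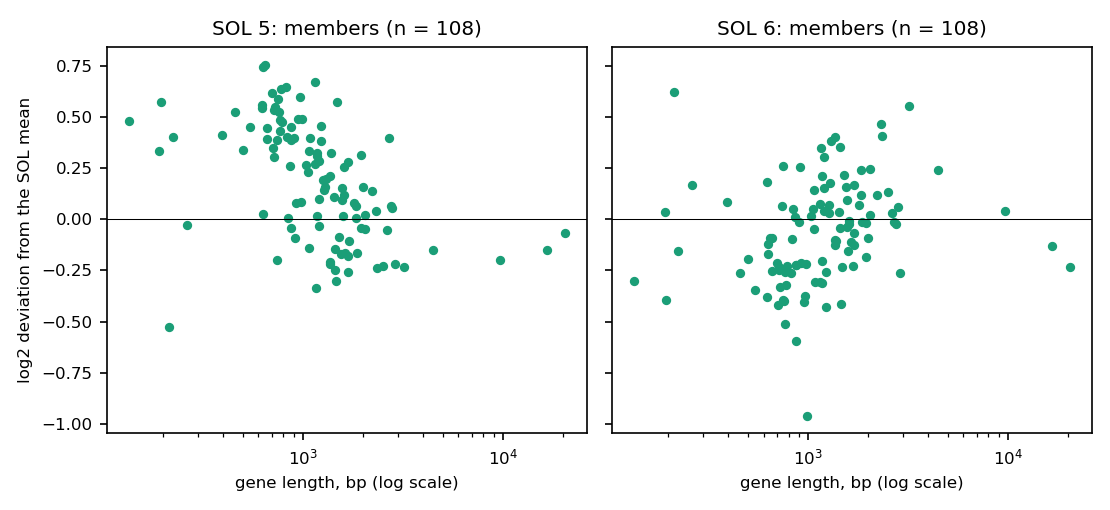
Log2 deviation from the SOL mean (y axis) against gene length in bp (x axis, log scale) for the 108 members in SOL 5 and SOL 6. In SOL 5 most members under 1000 bp lie above 0 (rank correlation -0.607), and in SOL 6 most lie below it (0.357). The SOL mean includes SOL 5, so the panels are not independent.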

How the data were processed

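RNA was extracted with TRIzol, depleted of ribosomal RNA, aligned to the sheep genome by HISAT2 2.2.1 and its transcripts assembled by StringTie 2.2.0, per the labels' protocols. No source used here gives the build, annotation, counter or strand use. The deposited table has no unit in its header and holds FPKM, as judged from the values: with whole gene lengths and 18 whole library totals, 99.7% of values above 0 gave whole reads within 0.05. Each gene's length was taken as the smallest that fitted its libraries, so genes seen in few libraries fit more easily. Recovery was checked on simulated data, for genes seen in most libraries.

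The 15434 genes averaging 0.1 FPKM or more were fitted as log2(FPKM + 0.1) by limma 3.58.1 in R 4.3.3, using its variance trend, a coefficient per muscle and Benjamini-Hochberg adjustment. A second model added replicate number. Deviations of same-numbered libraries correlated over all genes at 0.125 or more for SOL and PM, and at 0.086 or more with LL. Over all genes, all 6 same-numbered values of each pair of muscles lay above every value for different numbers. The first model did not use the number, and the second used it in all 18 libraries. Where numbers do not mark animals, p-values measure only the spread between these libraries. Likeness between members is Pearson's r of muscle-centred log2 values.

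Named were the 3 most abundant members, per comparison the 2 largest and 2 smallest ratios without overlap, the 2 smallest p for number and the 2 closest to the most abundant member. Members and lists were chosen with earlier results of these data known. Gene lists and markers written for named genes could not be used and were not tested.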

Additional observations from a re-analysis of the deposited data

Results flagged for a closer look

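In 57 sets of 6 libraries (the 17 named members and the members' share of FPKM and of reads, by muscle), the highest or lowest library was set against the others by Dixon's test at 5%. It stood apart in 4 sets, and chance flags about 1 in 20 where values are normally distributed. ENSOARG00020006843 reached 2331 FPKM in PM 1, and no other PM library exceeded 1181 FPKM. In SOL 5, ENSOARG00020022261 stood at 368 FPKM against 298 or less, and ENSOARG00020003476 at 727 against 502 or less. The members' share of the FPKM sum was 22.001% in LL 3 and at most 20.3% in the other LL libraries. The most abundant member held 27814 FPKM in LL 3, against a mean of 14158 in the others, and with it left out the LL 3 share was 16.9%, within their range of 16.7% to 17.7%.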

How the results depend on the processing

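The rule found 97 to 111 genes under median-ratio scaling, equal FPKM sums and muscle medians, and 102 to 112 with each library left out. Of the 12 log2 differences of named members, 0 changed sign in 252 values under the replicate block, other scalings and left-out libraries. Only the other scalings could have changed a sign. These members were chosen for libraries that did not overlap, so leaving out a library could not reverse the difference. In this balanced design the block leaves the differences unchanged. Members called among the 3 muscles numbered 68 (23.4% of all genes), and 54 to 69 with each library left out (19.1% to 24.1% of all genes). The ranges were 48 to 55 for SOL against LL (21.3% to 25.7% of all genes) and 35 to 50 for SOL against PM (13.3% to 18.9%). For PM against LL they were 4 to 7 (0.894% to 2.2%), and for replicate number 2 to 4 (1.37% to 2.31%), with 4 without LL 2. With the replicate block the counts were 77, 65, 54 and 11 (27.2%, 29.4%, 19.8% and 2.69% of all genes). For PM against LL, 7 members were called (1.48% of all genes), and 3 in a fit of those 12 libraries (0.713%). With voom on recovered reads 13 were called (1.59%), and 4 without LL 3, SOL 3 and SOL 5 together (1.09%). For replicate number, 2 members were called (1.89% of all genes), 4 with equal FPKM sums (1.84%) and 1 with SOL and PM alone (0.745%). Settings chosen after seeing the data gave 4 with quality weights (3.28%) and 9 with voom (2.93%). The cause was not tested. Over all genes, 229 were called for PM against LL, 415 with the replicate block, 110 in the fit of 12 libraries and 138 to 150 without PM 1, PM 2, PM 4 or PM 6; for replicate number 292 were called, 115 with SOL and PM alone, 507 with quality weights and 451 with voom. The members' share of the FPKM sum (LL 20.1%, PM 19.8%, SOL 19.9%) ranged over 19.69% to 20.21%, 19.56% to 20.0% and 19.67% to 20.15% with each library left out. As shares of reads, PM and SOL stood at 21.35% and 21.02%. Leaving out SOL 5 for co-variation and length was also chosen after seeing the data. Members shorter than a fragment are the least certain in level.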

Other observations

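Across all 108 members and 3 muscles, a library stood apart by Dixon's test in 26 of 324 sets (8.02%). Chance flags about 1 in 20 where values are normally distributed, whereas FPKM were tested here. The members share libraries, so the sets are not independent. No share over other genes is given, so nothing is read from this count about the members. SOL 5 was the high library in 10 of the 26, and PM 2 and SOL 2 in 3 each. Among them, ENSOARG00020017657 reached 988 FPKM in PM 2, and no other PM library exceeded 255 FPKM.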
